A study of Rattus norvegicus with 8 samples.

Results

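The choroid plexus is a vascular tuft covered by a secretory epithelium that hangs into the ventricles of the brain and makes cerebrospinal fluid. Its 8 genes described here are Ttr, Kl, Clic6, Aqp1, F5, Cldn2, Sostdc1 and Folr1, chosen as markers of that epithelium, of 16514 gene symbols in the 2 expression tables. Rows were matched by symbol and a symbol listed at several loci was given their sum, in FPKM (fragments per length of transcript, relative to the size of the library). All 8 were listed for hypothalamus and 7 for hippocampus, where Folr1 had no entry. They were chosen by their known FPKM levels in these libraries, which range widely between the hippocampus replicates, so those levels and their spread stand as a description and no test was made.

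RNA was sequenced from hippocampus and hypothalamus of male Sprague Dawley rats, with 4 libraries per tissue. The rats were 2 months old at the start and took fructose at 15% in the drinking water together with an omega-3 diet containing docosahexaenoic acid (DHA) for 6 weeks. This treatment is shared by all 8 libraries, so the values carry no comparison of diets. The labels do not say whether the libraries came from separate animals, and the spread given is that between libraries, which may be technical. How many reads each library held was unknown.

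The epithelium joins its cells by tight junctions, moves ions and water from blood towards the ventricle, and secretes carrier proteins into the fluid. Ttr encodes transthyretin, the carrier of thyroid hormone and of retinol-binding protein, and is a leading transcript of this tissue. In the rat the plexus of the lateral ventricle lies against the hippocampus along the choroidal fissure, and that of the third ventricle hangs from its roof, above the hypothalamus.

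The libraries of hippocampus stood apart from each other for these genes. Replicates 3 and 4 had the high values of all 7 listed genes, and replicates 1 and 2 had the low ones. Genes of the labelled tissues were in place in every library. Slc17a7, the vesicular glutamate transporter of pallial neurons, was at 568 to 997 FPKM in the hippocampus libraries and at most 1.02 in those of hypothalamus, and Neurod6 was at 52.5 to 92.5 against at most 1.41. Oxt, encoding oxytocin, was at 1877 to 2294 FPKM in hypothalamus and at most 0.279 in hippocampus. Levels across the tissues come from tables that list some ubiquitous genes far apart, such as Gapdh at 3.74 to 7.71 FPKM in hippocampus and 477 to 773 in hypothalamus.

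Since the genes moved together, the stretch of 250 bases before the annotated start was examined for the 4 of them that the RefSeq promoter table holds (Ttr, Aqp1, Kl and F5, build GRCr8, whereas the submitters' notes name rn5 for the expression values). The sequence of Ttr, the gene with the highest level, lies at chr18:12218508-12218757 and that of Aqp1, the only one of the 4 with a TATAAA match, at chr4:85812534-85812783, both on the plus strand. They are written 5′ to 3′ in lower case, with capitals for a motif match:
Ttr: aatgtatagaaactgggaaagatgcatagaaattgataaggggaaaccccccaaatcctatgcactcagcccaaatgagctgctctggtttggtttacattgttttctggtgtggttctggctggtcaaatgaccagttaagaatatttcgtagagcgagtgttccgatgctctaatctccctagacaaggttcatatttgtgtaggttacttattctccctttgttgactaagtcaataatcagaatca
Aqp1: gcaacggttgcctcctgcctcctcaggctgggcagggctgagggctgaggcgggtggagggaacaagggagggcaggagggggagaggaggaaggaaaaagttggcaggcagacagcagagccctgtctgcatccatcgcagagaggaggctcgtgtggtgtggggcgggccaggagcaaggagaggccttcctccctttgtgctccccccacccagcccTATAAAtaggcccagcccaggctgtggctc
The motifs searched on both strands were TAATCC, the core bound by OTX factors, TGTTTAC, bound by forkhead factors, and TATAAA, which was added after the sequences had been seen. TAATCC was in none of the 4 and in 6.33% of 27457 promoter stretches of this length. TGTTTAC was in none of the 4 and in 3.25% of all stretches. TATAAA was in 1 of the 4, starting 30 bases before the annotated start of Aqp1, and in 13.1% of all. G and C made up 40.4% of the Ttr stretch, 65.2% of that of Aqp1, 73.2% of that of Kl and 56% of that of F5.

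Ttr was an ordinary transcript in 2 hippocampus libraries and the most abundant of all in the other 2. It was listed at 34.5 FPKM in replicate 1, 34.2 in replicate 2, 6283 in replicate 3 and 4740.3 in replicate 4. In replicates 3 and 4 it ranked 1 of 16223 symbols, and in replicates 1 and 2 it ranked 2241 and 2211. Its share of the summed FPKM of a library was 1.61% in replicate 3 and 1.13% in replicate 4, against 0.00910% and 0.00975% in replicates 1 and 2. Replicate 3 was thus 182 times replicate 1 for this gene, while the median gene of the table was 1.04 times higher in that pair. In bulk RNA, fewer cells of a type and less RNA per cell cannot be told apart.

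The other secreted products followed the same division. Sostdc1, a secreted antagonist of bone morphogenetic protein and Wnt signals, was at 0.0968, 0.542, 25 and 14.6 FPKM in hippocampus replicates 1 to 4. F5, which encodes coagulation factor V, was at 0.206, 0.493, 35.1 and 16.1 FPKM in the same libraries. For both genes replicates 1 and 2 lay under 1 FPKM and the other libraries did not overlap with them.

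Genes for water, ion and junction proteins of the epithelium were divided alike. Aqp1, the water channel of its apical membrane, was at 0.247, 0.412, 24.3 and 16.8 FPKM in hippocampus replicates 1 to 4. Clic6, an intracellular chloride channel protein, was at 0.471, 1.78, 70.2 and 37.2 FPKM. Cldn2, a claudin that forms cation pores in tight junctions, was at 0.166, 0.233, 24.6 and 12.3 FPKM, summed over 2 loci in this table. After Ttr, Clic6 was the most abundant of the genes in every hippocampus library.

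The receptors could be followed in hippocampus for 1 gene only. Kl encodes klotho, a coreceptor for fibroblast growth factor 23, and was at 0.349, 0.530 and 46.3 FPKM in replicates 1, 2 and 3 and at 25.5 in replicate 4. It was second to Clic6 among the genes other than Ttr in replicates 1, 3 and 4. Folr1, the folate receptor through which the epithelium carries folate into the fluid, had values only for hypothalamus, given below with the other genes of that tissue.

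On the scale of log2(FPKM + 1) after scaling each library by a median-of-ratios factor, all 7 genes ranged at least 4-fold between the hippocampus libraries, a range found for 1.99% of the 10485 genes whose hippocampus mean reached 1 FPKM. This range is what singled the genes out, and nothing is read from the count. The range of Ttr was 7.43 and ranked 1 of 10485. Those of the other genes went from 4.38 for Aqp1, at rank 30, to 5.62 for Clic6, at rank 12, and the median gene had a range of 0.59. For 5 of the 7 genes, Kl, Aqp1, F5, Cldn2 and Sostdc1, the mean of replicates 1 and 2 alone lay under 1 FPKM, so they entered the set of genes compared through replicates 3 and 4. Genes with so wide a range were most often highest in replicate 4 (104 of 209, or 49.8%), and 52 of 209, or 24.9%, were highest in replicate 3, as all 7 choroid plexus genes were.

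**Figure D1:**
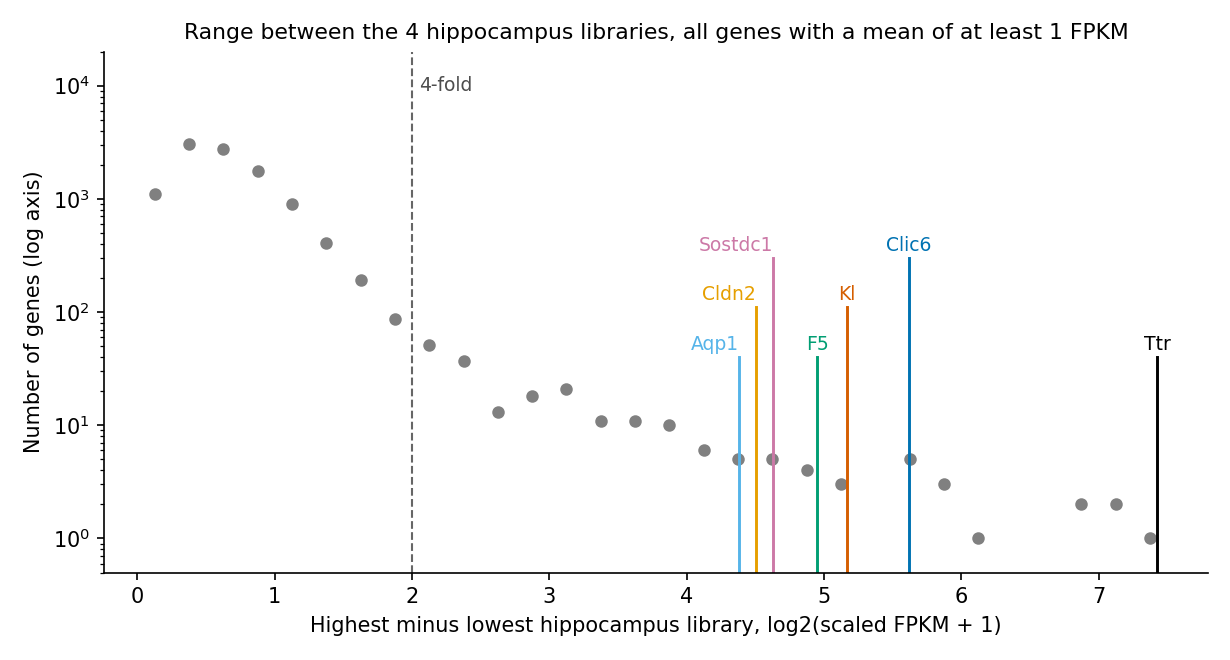
Number of genes (log axis) by the range between the highest and the lowest hippocampus library on log2(scaled FPKM + 1), counted in steps of 0.25 (grey points), with the 7 choroid plexus genes as named lines and a dashed line at 4-fold. The 7 genes lie between 4.38 and 7.43, and the median of all genes is 0.59.

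The genes kept close order among the hippocampus libraries. Kl, Clic6, Aqp1, F5, Cldn2 and Sostdc1 were each highest in replicate 3, then replicate 4, replicate 2 and replicate 1, an order found for 2.94% of 10485 genes. The genes were chosen by their levels in these libraries, so nothing is read from the shared order. The step between replicates 2 and 1 rests on values under 1 FPKM for these genes, except Clic6 in replicate 2. Ttr shared the first places but was listed 0.989 times as high in replicate 2 as in replicate 1, so 0 of the other 6 genes had its exact order, which 3.5% of all genes had. Upper-quartile scaling turned that pair of libraries for Ttr and gave all 6 its order.

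The step between replicates 3 and 4 was far smaller than that to the low libraries. Replicate 3 was 1.33 times replicate 4 for Ttr and 2.18 times for F5, the ends of the range over the 7 genes, with a median of 1.81 where the median gene of the table had 1.01. Of the 7 genes, 5 (F5, Cldn2, Clic6, Kl and Sostdc1) lay above 1.62, the upper end of the central ratios of all genes for this pair. Such central ratios begin at percentile 2.5 and end at the matching upper percentile. The genes were chosen by their levels in these libraries, so nothing is read from this count. The steps to the low libraries were wider and less alike. Replicate 3 over replicate 1 went from 98.1 for Aqp1 to 258 for Sostdc1, and replicate 3 over replicate 2 from 39.5 for Clic6 to 184 for Ttr. Over all genes with a value in both libraries, the central ratios of replicate 3 to replicate 1 ran from 0.568 to 2.5. The ratios of Ttr stand over 34.5 and 34.2 FPKM, and those of the other 6 genes over values under 1 FPKM, except Clic6 in replicate 2 at 1.78. The depth needed to give an interval was unknown.

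Relative to Ttr in the same library, which removes any scaling between libraries, the genes stayed within 6.63-fold in hippocampus although each level itself moved by at least 98.1-fold. Kl was at 1.01, 1.55, 0.737 and 0.539% of Ttr in replicates 1 to 4. Cldn2 was at 0.480, 0.682, 0.391 and 0.259%. Clic6 went from 0.784% in replicate 4 to 5.20% in replicate 2, the widest band of the 6 genes. The highest over the lowest of these percentages was 2.63 to 6.63 over the 6 genes, with a median of 3.82. In hypothalamus it was 4.28 to 10.2, with a median of 7.76, although the levels themselves moved far less there. The lowest percentage in hypothalamus was in replicate 2 for each of the 6 genes. In that library Ttr itself was highest, at 82.3 FPKM against 10.1 to 16.7 in the others.

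**Figure D2:**
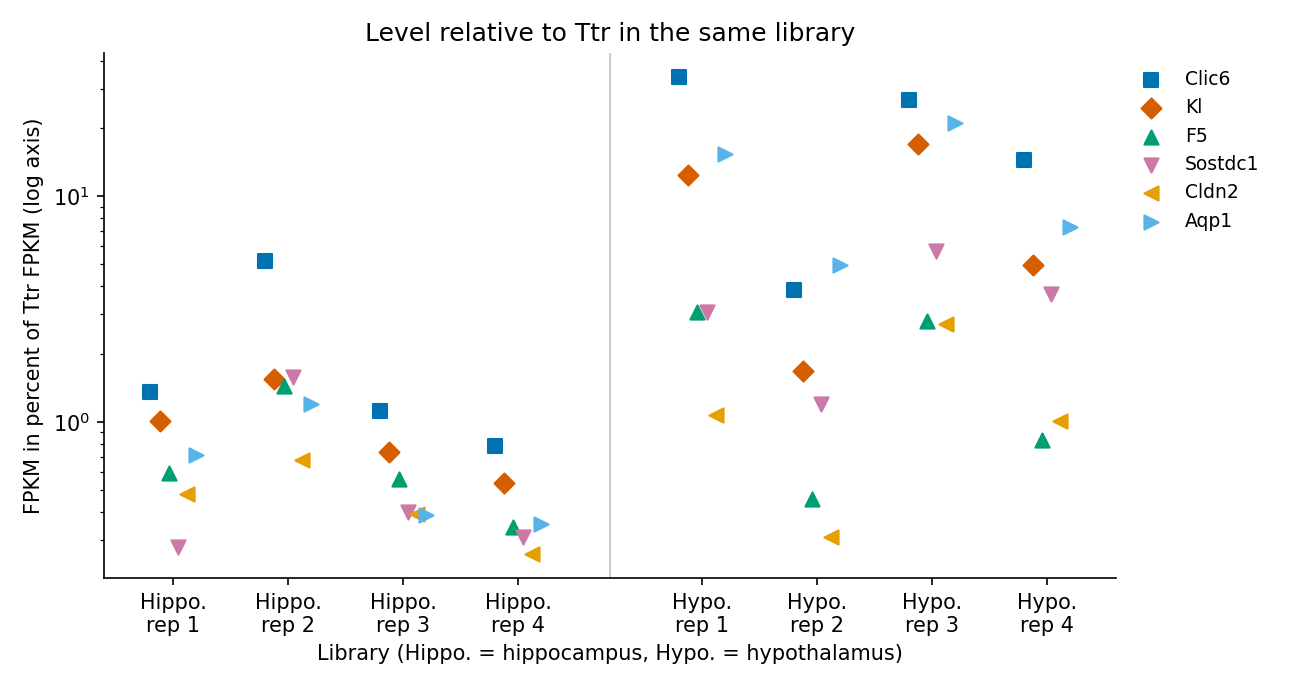
Level of 6 choroid plexus genes in percent of the Ttr FPKM of the same library (log axis), 1 symbol per gene and library. The hippocampus libraries lie between 0.259 and 5.20%, and Clic6, Kl and Aqp1 reach 33.9, 17.1 and 21.2% in hypothalamus.

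In hypothalamus Ttr was lower than in hippocampus replicates 3 and 4, and most of the other genes were at a few FPKM or less. Ttr was at 11.1, 82.3, 10.1 and 16.7 FPKM in replicates 1 to 4, so replicate 2 stood apart from the rest. The highest library was 8.15 times the lowest for Ttr and at most 3.34 times for the other 7 genes. Aqp1 was highest there as well, at 4.08 FPKM against 1.71, 2.15 and 1.22 in replicates 1, 3 and 4, and Sostdc1 at 0.988 against 0.340, 0.580 and 0.616. Summed over the meningeal list described below, replicate 2 was also the highest of the hypothalamus libraries. It was at 696 FPKM against 312, 505 and 508 in replicates 1, 3 and 4. The tanycyte list was highest there too, at 542 FPKM against 441, 420 and 358. The ependymal, endothelial, blood cell, and pineal and pituitary lists, and that of other choroid plexus genes, had their highest sums in other libraries. The part of any list in the level of Ttr was not tested.

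Folr1 and Clic6 were the most even across the hypothalamus libraries, with the highest library 1.33 and 1.55 times the lowest. Folr1 was at 5.49, 7.07, 5.69 and 7.29 FPKM, or 6.39 ± 0.924 (SD, n = 4), the highest level after Ttr in all 4 libraries. Clic6 was at 3.0 ± 0.583 FPKM. Kl was at 1.33 ± 0.371 FPKM, with the highest library 2.08 times the lowest. F5, at 0.284 ± 0.104, and Cldn2, at 0.204 ± 0.0727, were the lowest of the genes. Their highest libraries were 2.69 and 2.3 times the lowest, and that of F5 was replicate 2. Of the 5 genes that averaged 1 FPKM or more in hypothalamus only Ttr ranged over 4-fold, against 0.735% of 10746 genes, and its range of 2.91 rests on replicate 2. Without that library no gene of the 5 did.

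The proportions to Clic6 differed between the tables for F5 and Cldn2. F5 stood at 27.8 to 50.1% of the level of Clic6 in the hippocampus libraries and at 5.74 to 11.8% in those of hypothalamus, with no overlap. Cldn2 stood at 13.1 to 35.2% of Clic6 in hippocampus and at 3.17 to 10.2% in hypothalamus, again with no overlap. The hypothalamus percentages rest on low values, F5 at 0.139 to 0.373 FPKM and Cldn2 at 0.119 to 0.274, with depth unknown. Cldn2 was summed over 2 loci in hippocampus and had 1 in hypothalamus. For Kl, Aqp1 and Sostdc1 the percentages of Clic6 overlapped between the tissues. The share of all genes without such overlap was not counted, so nothing is read from its absence for F5 and Cldn2. These comparisons of levels are per transcript length, and tissue and table cannot be told apart in them.

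Between the tissues, the direction of 4 of the 7 genes rested on 2 hippocampus libraries. All 7 mean differences, hypothalamus minus hippocampus on log2(scaled FPKM + 1), lay below 0, from -4.61 ± 2.19 (SE, n = 4 per tissue) for Ttr to -0.89 ± 1.2 for Aqp1. Their median was -1.76 and that of all 10554 genes compared was -0.04. None of the 7 met the rule of a difference of at least 1 in which the 4 libraries of each tissue lie apart from the other 4, which 26.7% of all genes met, 13.3% higher and 13.4% lower in hypothalamus (1402 and 1414 genes, or 1912 and 1018 with values as deposited, which places the median gene at 0.18). With hippocampus replicates 3 and 4 left out, the median of the 7 genes was 0.24, and 4 of them, Kl, Clic6, Aqp1 and Sostdc1, had differences above 0. F5 was then at -0.13 and Cldn2 at -0.04, both with overlapping libraries.

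Taken library by library, hippocampus replicates 3 and 4 lay above every hypothalamus library for 7 of 7 genes. Replicate 1 lay below every hypothalamus library for 4 genes (Kl, Clic6, Aqp1 and Sostdc1) and within their range for the other 3. Replicate 2 lay below for 3 genes, within for 2 and above for F5 and Cldn2. These places are on scaled values: as deposited, Cldn2 in replicate 2, at 0.233 FPKM, lay within the hypothalamus range, which reached 0.274. The genes were chosen by their levels in these libraries, and such places were not counted for all genes. Nothing is read from these counts. Without replicates 3 and 4, Aqp1 was 1.12 higher in hypothalamus and met the rule, which 15.2% of genes then met as higher and 14.5% as lower. Kl at 0.57 and Clic6 at 0.81 had libraries apart but were under the limit, and Ttr was at -1.01 with overlapping libraries. Of the 7 genes, 4 (Kl, F5, Cldn2 and Sostdc1) had a mean under 1 FPKM over the 6 libraries other than hippocampus replicates 3 and 4, so their place among the genes compared came from those libraries.

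**Figure D3:**
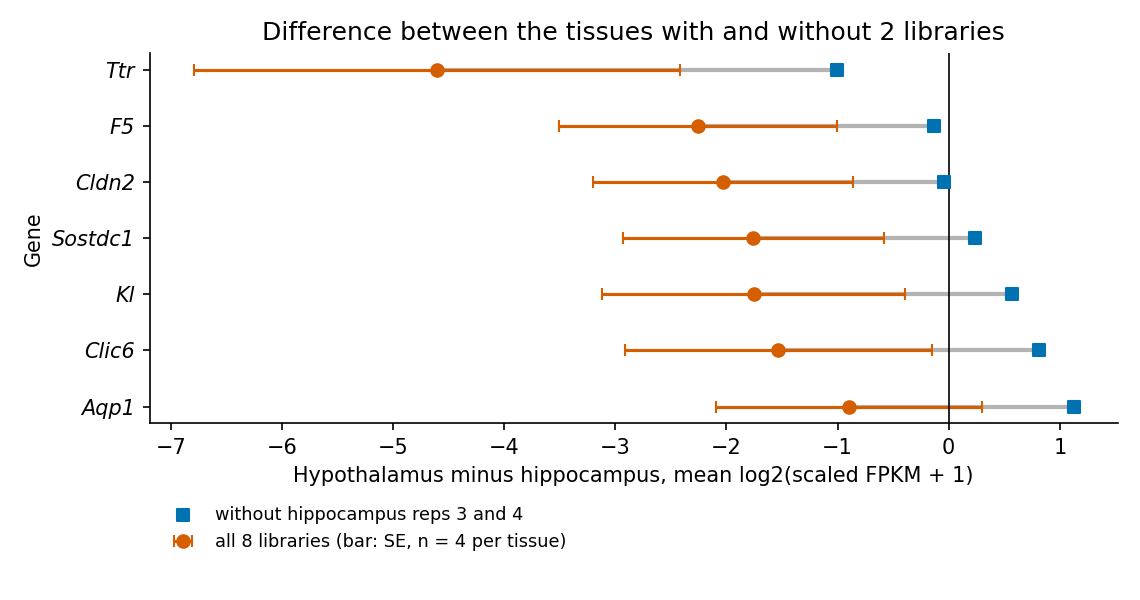
Difference between hypothalamus and hippocampus in mean log2(scaled FPKM + 1) for 7 genes, over all 8 libraries (circles, with SE) and without hippocampus replicates 3 and 4 (squares). All circles lie below 0, and the squares of Sostdc1, Kl, Clic6 and Aqp1 lie above 0.

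Other genes of the choroid plexus divided the hippocampus libraries in part. Of a list of 40 such genes, 38 were listed for hippocampus and 35 reached a mean of 1 FPKM there. Of these 35, 20 ranged at least 4-fold, 13 of them highest in replicate 3 and 7 in replicate 4, where 1.99% of all genes had such a range. Their median range was 2.19 against 0.59 for all genes, with the limit that some entered through the high libraries. A 4-fold range was not always the division seen for the 7 genes. Slc39a4 was at 0.340, 0.145, 0.232 and 11.2 FPKM in replicates 1 to 4, and Krt8 at 0.246, 2.65, 4.47 and 5.91. In hypothalamus 1 of 29 ranged as widely, Igf2, named after its values were seen. Otx2, a transcription factor of this epithelium, was listed at 0 in all 8 libraries.

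The 4 genes of that list with the highest means went different ways. Enpp2, which encodes autotaxin, the enzyme that makes lysophosphatidic acid, was at 56.3, 115, 835 and 574 FPKM in hippocampus replicates 1 to 4 and at 98.5 to 112 in hypothalamus. Igf2, a growth factor of choroid plexus and meninges, was at 5.27, 9.33, 76.6 and 75.6 FPKM in hippocampus and higher, at 82.8 to 380 FPKM, in hypothalamus. Igfbp2, which binds that factor, was at 12, 7.64, 137 and 160 FPKM in hippocampus and 71.8 to 249 in hypothalamus. Atp1b1, the sodium pump subunit that neurons also make, was at 1308 to 1490 FPKM in hippocampus and did not divide the libraries.

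Among all genes outside the 8, likeness to their pattern was measured as the root mean square difference, over the 8 libraries, between a gene's deviations from its tissue means and the median deviations of the 7 genes. The most alike of 10554 genes was Slc4a5, a sodium bicarbonate cotransporter of the choroid plexus, at 0.171, where the median gene was at 1.58. It was at 0.190, 0.312, 24.1 and 19.3 FPKM in hippocampus replicates 1 to 4 and at 0.521 to 1.02 in hypothalamus. The next were Pla2g5, Ace, Pon1, Enpp2, Tmem27, Lect1, Scgb1c1, Steap1, Prlr, Slco1a5 and Tmem72, and the last of these 12 was at 0.617. Of the 12, 7 were on the choroid plexus list. Ttr itself was at 1.29, the farthest of the 7, since its steps between libraries were larger.

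Since likeness to the choroid plexus genes chose these 12, high levels in hippocampus replicates 3 and 4 follow from the choice, and their values are a description. Replicate 3 was the highest for 11 of the 12. Pla2g5, a secreted phospholipase A2, was the exception, at 15.0 FPKM in replicate 3 and 19.5 in replicate 4, against 0.369 and 0.538 in replicates 1 and 2. Ace, angiotensin-converting enzyme, was at 3.02, 3.06, 46.7 and 27.3 FPKM in replicates 1 to 4. Prlr, the prolactin receptor, was at 0.0774, 0.328, 8.81 and 4.74 FPKM. Pon1, a paraoxonase, was listed at 0 in replicates 1 and 2 and at 13.3 and 3.46 FPKM in replicates 3 and 4. In hypothalamus Slco1a5, an organic anion transporter, and Tmem72 stayed at or below 0.0356 and 0.0827 FPKM.

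**Figure D4:**
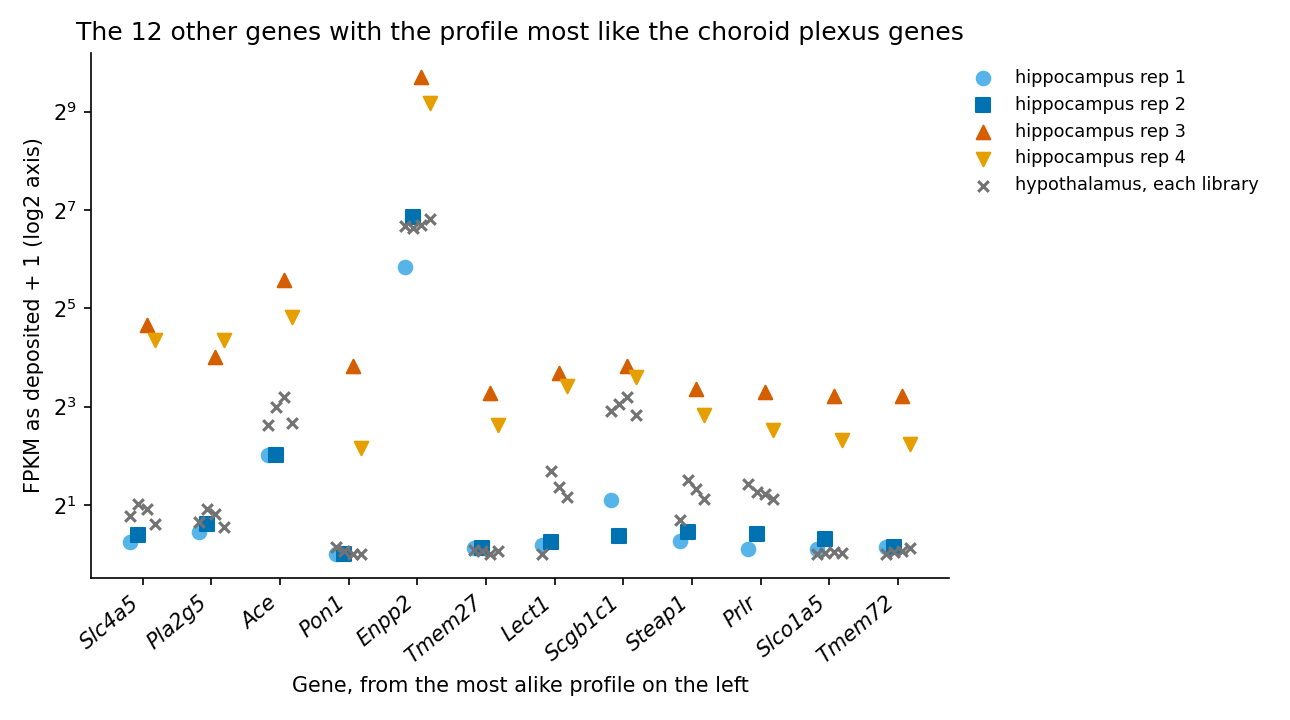
FPKM as deposited plus 1 (log2 axis) of the 12 genes with the profile most like the choroid plexus genes, with 1 symbol for each hippocampus library and crosses for the 4 hypothalamus libraries. The genes were chosen for this profile, and replicates 3 and 4 are the 2 highest hippocampus libraries for each, from Slc4a5 at 24.1 and 19.3 FPKM to Tmem72 at 8.30 and 3.73.

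Markers of ependymal cells and tanycytes had ranges between those of the choroid plexus genes and of the median gene. Of 24 ependymal and motile cilia genes, 16 were listed for hippocampus, 14 reached a mean of 1 FPKM and 0 ranged 4-fold, a count near the 1.99% of all genes. Their median range was 1.13 against 0.59 for all genes, and 5 of the 14 were highest in replicate 3 and 6 in replicate 4. Of all genes 12.9% were highest in replicate 3, and the share for replicate 4 was not counted. The summed level of the ependymal genes was 78.7, 99, 121 and 115 FPKM in replicates 1 to 4. Foxj1, the regulator of motile cilia, was at 52.0, 48.3, 52.5 and 49.6 FPKM and made up much of this sum. Dynlrb2, a dynein light chain, was higher in replicates 3 and 4, at 5.05, 11.4, 15.6 and 16.2 FPKM. Tekt1, a tektin of cilia, was at 2.39, 3.38, 9.74 and 7.19 FPKM, and Rsph1, a radial spoke protein, at 1.51, 1.53, 3.44 and 3.99. Other ependymal genes did not divide the libraries in this way. Tmem212 was at 3.01, 5.86, 6.18 and 6.13 FPKM, with replicate 2 near replicates 3 and 4. Ccdc39, at 2.74, 5.17, 4.63 and 3.66, and Ak7, at 1.41, 4.57, 3.69 and 3.52, were the 2 of the 14 highest in replicate 2. Tekt1, Rsph1, Ccdc39 and Ak7 were named after their values were seen. The part of the ependymal genes in the choroid plexus levels was not tested.

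Endothelial genes ranged as the median gene did. Of 15 endothelial genes, 14 were listed, 0 ranged 4-fold with a median range of 0.60, and the sum was 379, 368, 446 and 472 FPKM. Of 12 tanycyte genes, all were listed, 0 of the 7 above the mean of 1 FPKM ranged 4-fold with a median range of 0.85, and the sum was 338, 276, 419 and 401 FPKM.

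Meningeal genes ranged more widely, and 13 of 16 were highest in replicate 4, though the share of all genes highest there was not counted. Of 22, 20 were listed for hippocampus, and 5 of those above the mean of 1 FPKM ranged 4-fold, 4 highest in replicate 4 and 1 in replicate 3. Over all genes 1.99% ranged 4-fold, and 49.8% of those were highest in replicate 4. The median range of the meningeal genes was 1.45. The sum was 55, 77.5, 122 and 163 FPKM in replicates 1 to 4, so it was highest in the libraries with the high choroid plexus levels, while Col1a2 and Ogn were listed at 0 in all 4. Of 10 blood cell genes only 3 were listed for hippocampus, with a sum of 3.11, 3.26, 1.64 and 5.78 FPKM. The part of the meningeal genes in the choroid plexus levels was not tested.

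Some pineal genes were high in replicate 4 and not in replicate 3. Of 15 pineal and pituitary genes, all listed for hippocampus, 6 reached a mean of 1 FPKM and 5 of them ranged 4-fold, all highest in replicate 4. These 5, Tph1, Gngt1, Sag, Asmt and Crx, lay at or below 1.61 FPKM in the other hippocampus libraries. They thus reached that mean through replicate 4, so nothing is read from the count. Over all genes 1.99% ranged 4-fold, and 49.8% of those were highest in replicate 4. Summed over the list, the hippocampus libraries were at 2.61, 5.19, 4.88 and 308 FPKM in replicates 1 to 4. Tph1, the enzyme that opens serotonin and melatonin synthesis in the pineal gland, was at 0.0660, 1.61, 0.609 and 140 FPKM, and Gngt1, a phototransduction G protein subunit, at 0, 0.134, 0.922 and 129, so that both carried most of the sum. Aanat and Pde6b, of the same list, were at like levels in replicates 2 to 4. Aanat, the enzyme before the last of melatonin synthesis, was at 0.0632, 0.170, 0.158 and 0.208 FPKM, and Pde6b, a photoreceptor phosphodiesterase subunit, went from 0.576 in replicate 1 to 1.31 in replicate 2, both named after their values were seen. Prl, Gh1 and Fshb were listed at 0 in all hippocampus libraries. Replicate 3, the library with the highest choroid plexus levels, lay with replicates 1 and 2 in the sum of this list.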

How the data were processed

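Polyadenylated RNA of 8 libraries was sequenced by Illumina, following a protocol that the labels give. FPKM values were deposited by the authors as 1 table for each tissue, by locus and without coordinates. Cufflinks and Cuffdiff, the aligners TopHat, TopHat2, Bowtie and Bowtie2, and the build rn5 are named in the submitters' processing notes. Their versions, options and annotation were not given in the sources used here. The status column beside each value read OK for the 8 genes.

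Loci with the same symbol were added up (16223 symbols for hippocampus, 16183 for hypothalamus, 15892 in both). Levels are printed as deposited. Differences and ranges use log2(FPKM + 1), which understates changes of low genes, after median-of-ratios factors over the shared symbols, 0.892 to 0.950 for hippocampus and 1.07 to 1.12 for hypothalamus. Genes averaging 1 FPKM or more were compared. A gene was called between tissues when the difference was at least 1 and the libraries did not overlap. No p-value was computed, since the tables were made apart and the genes and lists were chosen with earlier results of these data known.

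The genes named were the 8, the 12 most alike, and in each list the 4 highest means; other list genes were named after their values were seen. Only some of these are described. Counting depth was unknown, so no interval for counting error is given. Same-numbered libraries of the tissues are not said to share an animal. The scripted steps were tested on simulated data for 10554 genes, where 100% of 200 genes with a tissue difference of 3 on the log2 scale were recovered and 0.0579% of the others were called. The simulated libraries differed far less from each other than the hippocampus libraries did for the choroid plexus genes. The recovery thus checks the steps and says nothing on the rule for such genes. Alternatives were another pseudocount, other scalings and filters, symbols of 1 locus, and each library left out. Python 3.11.15 with numpy 2.4.6, pandas 2.3.3 and matplotlib 3.10.9 was used.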

Additional observations from a re-analysis of the deposited data

Results flagged for a closer look

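In groups of 4 libraries, a value was singled out when its gap to the next was more than 0.829 of the range, which chance gives for about 1 in 20 groups. Of 90 groups examined over the named genes, 5 were singled out. Ttr in hypothalamus replicate 2 was at 82.3 FPKM, against 10.1 to 16.7 in the other libraries. Tph1 and Gngt1 in hippocampus replicate 4 were at 140 and 129 FPKM, against at most 1.61 and 0.922 in the others. Tmem212, a gene of ciliated cells, was low in hippocampus replicate 1 at 3.01 FPKM, against 5.86 to 6.18. Itm2a, an endothelial gene, was also low there at 53.2 FPKM, against 87.3 to 94.2. The choroid plexus genes gave no such value in hippocampus, where 2 libraries were high and 2 were low.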

How the results depend on the processing

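The division of the hippocampus libraries kept its form. All 7 genes ranged at least 4-fold under each alternative except with hippocampus reduced to replicates 1 and 2, where 0 did, and with symbols of 1 locus only, where Cldn2 dropped out and 6 of 6 did. Leaving out each library in turn gave 0 to 2 genes called between the tissues, F5 and Cldn2 without hippocampus replicate 1 and Ttr without hypothalamus replicate 2. Of all 10554 genes compared, 1456 were called higher and 1437 lower in hypothalamus without hippocampus replicate 1. Without hypothalamus replicate 2, 1388 were called higher and 1401 lower. Leaving out replicate 1 of both tissues gave 2, where 1599 of all genes were called higher and 1513 lower. Hippocampus with only replicates 1 and 2 gave 1, where 1600 of all genes were called higher and 1535 lower, an alternative added after seeing the data. The median difference of the 7 genes was -2.56 to -0.97 without each library and 0.24 with only replicates 1 and 2 of hippocampus. Of 118 single differences under alternatives 114 stayed below 0, and the other 4 came from that last setting. Every other setting kept hippocampus replicate 3, replicate 4 or both, which hold the high values, so nothing is read from this count. The order of Ttr was shared by 0 to 6 genes without each library, by 6 with upper-quartile scaling and by 6 without replicate 1 of both tissues. In hypothalamus 0 or 1 gene ranged 4-fold. With the replicate block, which asks that same-numbered libraries of the tissues differ in 1 direction, 1 gene (Cldn2, lower in hypothalamus) was called in place of 0. Of all 10554 genes the block called 1431 higher and 1431 lower. Whether the numbers pair the libraries could not be told from these values. Deviations of same-numbered libraries correlated across genes at -0.079 to 0.142, and those of other numbers at -0.201 to 0.199, so the ranges overlapped. Of the 4 libraries of each tissue, 2 of hippocampus and 1 of hypothalamus were most alike to their own number. Of the 12 most alike genes, 9 were also found with the profile of Ttr alone and 8 with a pseudocount of 0.1. Levels under 1 FPKM are limited by the unknown depth.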
